A study of Homo sapiens with 24 samples.

Results

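The 10 genes described here mark the colon epithelium: the transcription factors CDX1, CDX2 and HNF4A, the brush border gene VIL1, the surface and secreted genes CDH17, LGALS4, GPA33 and EPCAM, and the keratins KRT20 and KRT8. They were taken by symbol from the count table, and 10 of its 28307 genes carried one of these names. RNA was sequenced from SW620, a colon cancer line, and SUM159, a breast cancer line, after 30 h under NIF (nifuroxazide, a nitrofuran antibiotic) or its solvent DMSO. Each culture was sorted by aldehyde dehydrogenase activity into ALDHbr cells (high activity, enriched in cancer stem cells per the study) and ALDHneg cells (low activity), which gave 8 groups of 3 libraries from independent experiments. Each tumour type was represented by 1 line, so that line, tissue of origin and culture cannot be told apart in any comparison between SW620 and SUM159.

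In the intestine, CDX1 and CDX2 are homeobox factors that set intestinal fate, and HNF4A is a nuclear receptor that drives enterocyte genes together with them. Cells that leave the crypt build a brush border, an array of actin-filled microvilli bundled by villin (the product of VIL1), and switch on keratin 20. Liver-intestine cadherin (CDH17), galectin 4 (LGALS4) and the A33 surface antigen (GPA33) are further products of the intestinal epithelium. EPCAM and KRT8 are broader: they mark simple epithelia of many organs, breast included.

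In SW620 the drug raised some of these genes and lowered others, as it did genes at large. Of all genes tested, 43.3% were called in ALDHbr (21.4% higher, 21.9% lower) and 45.1% in ALDHneg cells (22.3% higher, 22.7% lower). NIF raised KRT20 and LGALS4 and lowered CDX2, HNF4A, GPA33 and KRT8 in both sorted fractions, and it lowered EPCAM in ALDHbr cells, while no change was called for CDX1, VIL1 or CDH17. The NIF calls of KRT8 and EPCAM were lost when some single libraries were left out. The sort gave 1 direction only: every gene had a positive log2 fold change in ALDHbr over ALDHneg cells. CDX2, HNF4A and LGALS4 were called higher with and without the drug. The shares of all genes called higher in the sort were 5.45% under DMSO and 3.41% under NIF. In SUM159, 9 of the 10 genes were near the limit of detection and KRT8 alone passed the filter on low counts.

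The library totals ran from 30253187 to 43127948 counts. Levels are in CPM, counts scaled to library sizes that were adjusted by the trimmed mean of M values (TMM). Differences are log2 fold changes from edgeR's quasi-likelihood test over all genes kept, and a gene was called at a Benjamini-Hochberg adjusted p below 0.05. One SUM159 library, ALDHbr DMSO replicate 3, stood apart for several of the 10 genes, and its values are given beside the SUM159 results. In SW620, ALDHbr DMSO replicate 2 was the lowest of its group for EPCAM and KRT8. In these bulk samples, fewer cells of a type and less RNA per cell cannot be told apart.

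Start-site sequence was looked up because the genes moved in opposite directions under NIF. RefSeq promoters on GRCh38.p14 matched 6 of the 10 genes with 7 start sites, and CDX1, VIL1, CDH17 and EPCAM were not matched. Windows from 250 bases before to 50 bases after the start were searched on both strands for the CDX letters TTTATG and TTTATA and for the HNF4 letters CAAAGTCCA. TTTATA on the opposite strand reads TATAAA and so overlaps the TATA box. The 120 bases before the start are printed below for the 2 genes that rose under NIF and for 2 that fell, in the direction of transcription, with the only match in capitals.
KRT20 (minus strand, chr17:40885243-40885362): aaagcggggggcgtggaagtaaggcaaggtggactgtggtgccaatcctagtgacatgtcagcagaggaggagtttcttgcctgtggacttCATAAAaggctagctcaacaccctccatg
LGALS4 (minus strand, chr19:38812946-38813065): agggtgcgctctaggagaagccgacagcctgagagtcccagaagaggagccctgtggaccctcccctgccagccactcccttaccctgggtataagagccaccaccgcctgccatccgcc
CDX2 (minus strand, chr13:27969316-27969435): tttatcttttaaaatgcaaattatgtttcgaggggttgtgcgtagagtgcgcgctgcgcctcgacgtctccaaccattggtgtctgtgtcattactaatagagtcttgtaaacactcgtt
GPA33 (minus strand, chr1:167090378-167090497): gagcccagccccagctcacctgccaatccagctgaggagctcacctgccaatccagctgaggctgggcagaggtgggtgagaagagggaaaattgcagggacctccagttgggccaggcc

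The capitals in the KRT20 promoter are TTTATG read on the opposite strand, at bases -29 to -24 from the start. TTTATG was present in 10.6% of 35116 RefSeq promoters searched the same way and TTTATA in 11.5%, with either in 19.6%. The HNF4 letters were in 0.384% of them. The match is a description of the letters, and whether it is a binding site was not tested.

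Per length, the 10 genes of SW620 covered a wide range of levels. CPM was divided by the length of the MANE Select transcript in kilobases, and means over the 12 SW620 libraries are given with their SD. KRT8 stood highest, at 4375 ± 429 CPM per kb. EPCAM followed at 472 ± 58.1 CPM per kb, LGALS4 at 380 ± 75.0 CPM per kb and KRT20 at 312 ± 76.3 CPM per kb. These SDs span treatments and fractions, and that of LGALS4 overlapped those of both EPCAM and KRT20. VIL1, at 24.5 ± 1.85 CPM per kb, overlapped HNF4A, at 19.2 ± 5.92 CPM per kb, in the same way. CDH17 came next with 3.70 ± 0.494 CPM per kb. GPA33 (0.574 ± 0.375 CPM per kb), CDX2 (0.253 ± 0.180 CPM per kb) and CDX1 (0.187 ± 0.111 CPM per kb) closed the order, and the spread of each overlapped that of the next. HNF4A thus stood far above the CDX factors in this line. All 10 genes were detected in all 12 SW620 libraries. KRT8 has many near-identical pseudogenes and HNF4A an antisense neighbour, and the handling of shared reads and of strand in counting is not stated, so that their levels are uncertain to that extent.

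NIF against DMSO in ALDHbr cells of SW620 asked how the drug acted on the sorted fraction of interest. Of the 10 genes, 2 were called higher and 5 lower, beside 43.3% of all 13953 genes tested (21.4% higher and 21.9% lower). The libraries of NIF and DMSO did not overlap for 5 of the 10, beside 45.1% of all genes. The median log2 fold change of the 10 was -0.24, against -0.01 for all genes.

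Among the transcription factors, CDX2 was at 1.62, 2.13 and 1.68 CPM in the DMSO libraries and at 0.940, 0.485 and 0.841 CPM under NIF. Every NIF library lay below every DMSO library. CDX2 had a log2 fold change of -1.26 (SE 0.23, adjusted p = 0.000609, n = 3 against 3). HNF4A stood at 124, 130 and 128 CPM under DMSO and at 85.6, 87.8 and 82.7 CPM under NIF. The groups did not overlap, and its replicates spread little beside the difference. The log2 fold change of HNF4A was -0.60 (SE 0.05, adjusted p = 8.1e-07). CDX1 was counted with only 14, 25 and 20 reads under DMSO and 7, 13 and 9 reads under NIF. Its groups did not overlap in reads but did in CPM (0.355 to 0.783 against 0.206 to 0.450), and a log2 fold change of -0.84 (SE 0.40, adjusted p = 0.102) was not called at this depth. Without DMSO replicate 1, CDX1 was called lower (log2 fold change -1.11, adjusted p = 0.045).

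KRT20, LGALS4 and GPA33 took different directions. KRT20, the keratin of mature surface cells, was at 451, 459 and 466 CPM under DMSO and rose to 738, 754 and 751 CPM under NIF. The distance between the groups was many times the SD within them (7.39 and 8.11 CPM). KRT20 had a log2 fold change of 0.69 (SE 0.04, adjusted p = 3.66e-08), a gain of 60.8%. LGALS4, a galectin that binds sulfated glycolipids on the apical membrane, went from 405, 394 and 444 CPM to 513, 529 and 559 CPM. All NIF libraries were higher than all DMSO libraries, with a log2 fold change of 0.34 (SE 0.05, adjusted p = 0.000164). GPA33, an immunoglobulin-like adhesion protein of the basolateral membrane, took the opposite course, from 2.36, 2.44 and 3.19 CPM to 0.911, 1.04 and 0.706 CPM. Its groups did not overlap, and its log2 fold change of -1.60 (SE 0.25, adjusted p = 0.000134) was the lowest of the 10.

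VIL1 and CDH17 differed between the groups by less than the spread of their replicates. VIL1 was at 158, 177 and 161 CPM under DMSO and at 178, 174 and 166 CPM under NIF (log2 fold change 0.05, 95% interval -0.05 to 0.15). CDH17 was at 13.9, 16.2 and 14.6 CPM under DMSO and at 15.3, 16.9 and 13.0 CPM under NIF. Its log2 fold change of -0.00 had a 95% interval of -0.20 to 0.19, so that a change within those bounds was not excluded.

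The broad epithelial genes fell slightly. EPCAM, an adhesion molecule of simple epithelia, was at 929, 757 and 859 CPM under DMSO and at 650, 725 and 789 CPM under NIF. The groups overlapped, since NIF replicate 3 exceeded DMSO replicate 2. The log2 fold change of -0.26 (SE 0.08, adjusted p = 0.0144) was lost without DMSO replicate 1 (adjusted p = 0.0728) and without NIF replicate 1 (adjusted p = 0.0646). KRT8, the type II keratin of simple epithelia, stood at 9001, 7581 and 9003 CPM under DMSO and at 6775, 7387 and 7945 CPM under NIF. Here too DMSO replicate 2 fell among the NIF libraries. The log2 fold change of KRT8 was -0.23 (SE 0.07, adjusted p = 0.0202), and it was not called without DMSO replicate 1 or 3 or without NIF replicate 1 or 2 (adjusted p = 0.0559 to 0.0823).

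**Figure D1:**
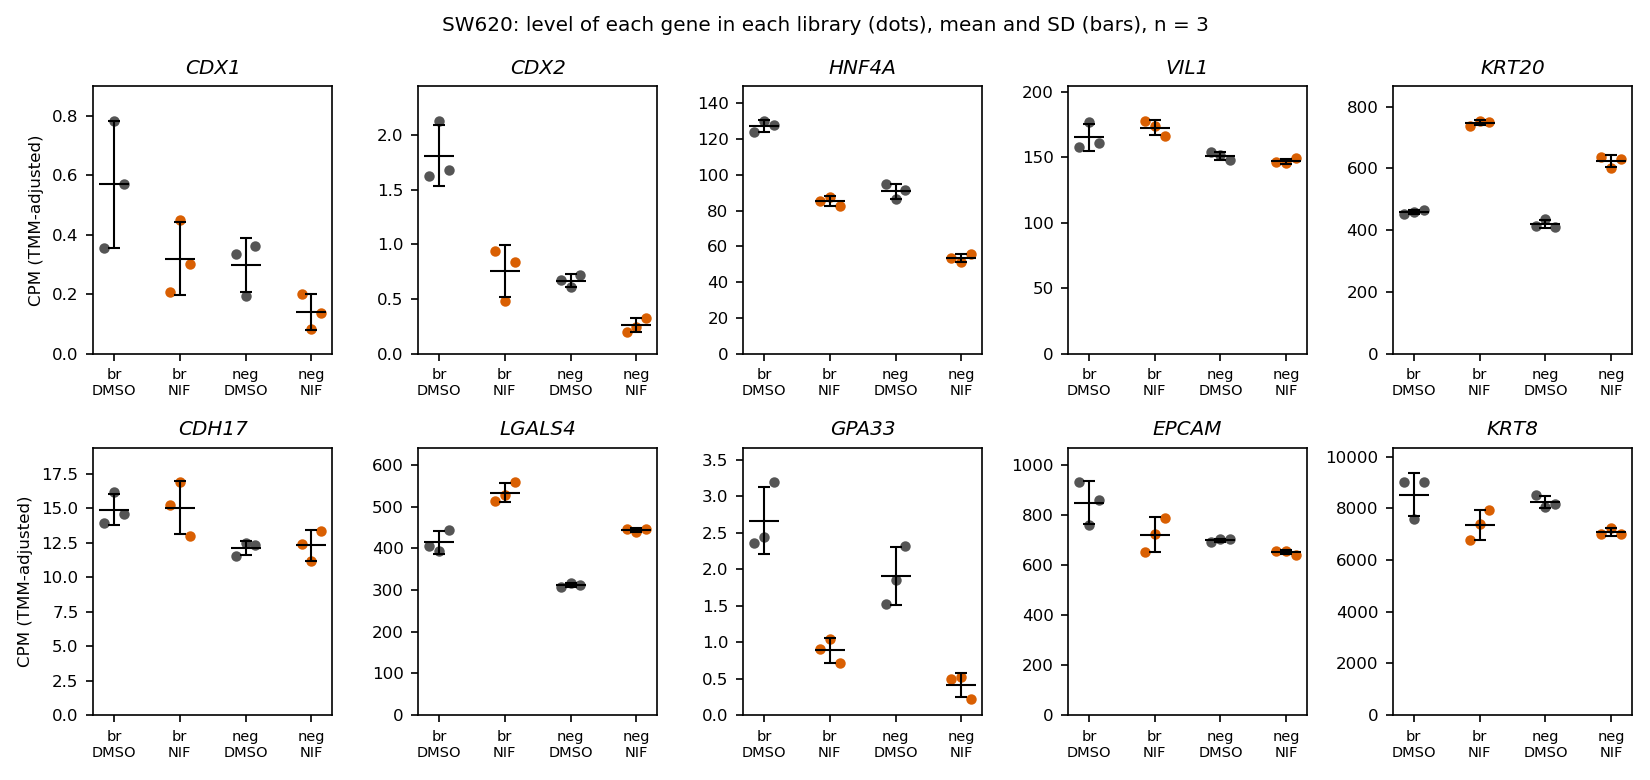
Level of each of the 10 genes in the 12 SW620 libraries, in CPM on linear axes that start at 0. Dots are libraries (grey DMSO, orange NIF), and the bars give the mean and SD of 3 libraries in each of the 4 groups (br, ALDHbr and neg, ALDHneg). KRT20 rose from a mean of 459 to 748 CPM in ALDHbr cells, while HNF4A fell from 127 to 85.4 CPM.

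NIF against DMSO in ALDHneg cells of SW620 used other libraries, but of the same experiments and in the same fit. It gave the same directions for every gene called in both fractions, which is not an independent repeat. Here 2 of the 10 genes were called higher and 4 lower, beside 45.1% of all genes tested (22.3% higher and 22.7% lower; 3114 and 3172 genes, or 2578 and 3957 without TMM). The groups did not overlap for 7 of the 10, beside 63.4% of all genes. The median of the 10 was -0.17, against -0.01 for all genes.

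CDX2 was at 0.672, 0.609 and 0.722 CPM under DMSO and at 0.201, 0.245 and 0.326 CPM under NIF. These correspond to 22 to 26 and to 7 to 12 reads, and the groups did not overlap. CDX2 changed by -1.37 on the log2 scale (SE 0.31, adjusted p = 0.0027). HNF4A dropped from 94.7, 86.3 and 91.5 CPM to 53.7, 51.1 and 55.5 CPM, again without overlap, with a log2 fold change of -0.78 (SE 0.05, adjusted p = 5.26e-08). CDX1, with 3 to 7 reads per NIF library and 7 to 13 per DMSO library, had a log2 fold change of -1.09 (SE 0.50, adjusted p = 0.0931) that was not called.

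KRT20 was at 414, 436 and 410 CPM under DMSO and at 638, 602 and 630 CPM under NIF. No NIF library came near the DMSO range, and the log2 fold change of KRT20 was 0.55 (SE 0.04, adjusted p = 2.39e-07). LGALS4 was at 307, 316 and 312 CPM under DMSO and at 447, 439 and 445 CPM under NIF, with an SD below 5 CPM in both groups. Its log2 fold change was 0.49 (SE 0.05, adjusted p = 5.24e-06). GPA33 went from 1.53, 1.85 and 2.32 CPM to 0.489, 0.517 and 0.217 CPM, which is 59 to 77 reads against 8 to 19. All NIF libraries were lower, and the log2 fold change of GPA33 was -2.22 (SE 0.29, adjusted p = 2.17e-05), or a fall to 0.214 of the DMSO level.

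KRT8 was at 8503, 8034 and 8178 CPM under DMSO and at 7019, 7251 and 6993 CPM under NIF. The groups did not overlap, and the log2 fold change of KRT8 was -0.23 (SE 0.07, adjusted p = 0.0191), lost without DMSO replicate 1 or NIF replicate 1 or 3 (adjusted p = 0.0615 to 0.0664). EPCAM was at 690, 702 and 701 CPM under DMSO and at 655, 657 and 641 CPM under NIF. Although these groups did not overlap either, the log2 fold change of -0.11 (SE 0.08, adjusted p = 0.241) was not called. It was called when library sizes were not adjusted (adjusted p = 0.0422) and when only these 6 libraries entered the fit (adjusted p = 0.00232). VIL1 (log2 fold change -0.05, 95% interval -0.15 to 0.05) and CDH17 (0.01, 95% interval -0.19 to 0.21) were not called.

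Whether the drug acted differently in the sorted fractions was tested as an interaction. The edgeR quasi-likelihood test called 0 of the 10 genes and 1 of 13953 genes in all, or 0.00717%, and DESeq2 also called 0 of the 10. At an unadjusted p below 0.05, 1 of the 10 passed, beside 771 of all 13953 genes. It was HNF4A, whose log2 difference (ALDHbr minus ALDHneg) was 0.18 (SE 0.08, unadjusted p = 0.0297, adjusted p = 0.853). For GPA33 the difference was 0.62 with a 95% interval of -0.15 to 1.39. The interval for KRT8 was -0.20 to 0.20. EPCAM, called in ALDHbr but not in ALDHneg cells, differed by -0.14 (95% interval -0.35 to 0.07) and was thus not shown to respond differently.

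**Figure D2:**
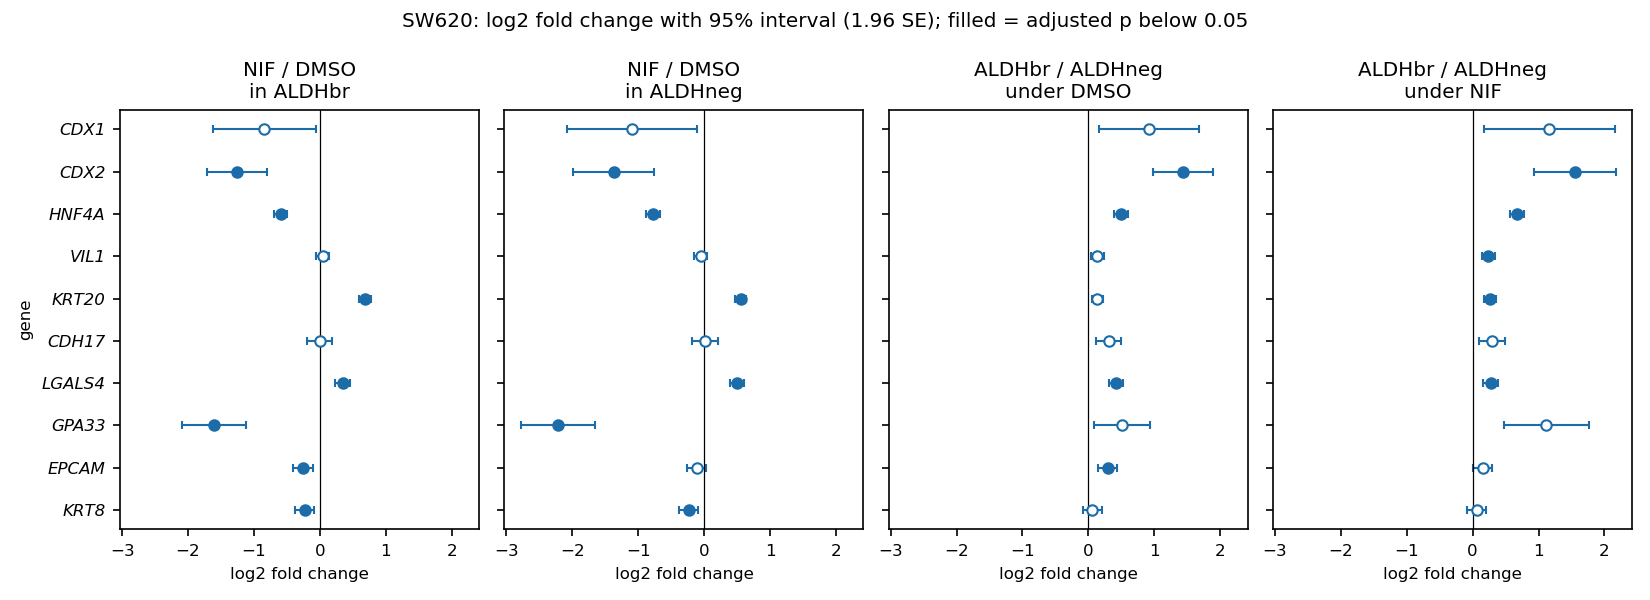
Log2 fold change of each of the 10 genes (horizontal axis) in 4 SW620 comparisons, with bars for the 95% interval (normal quantile). Filled points had an adjusted p below 0.05 in edgeR's quasi-likelihood test. Points lie on both sides of 0 under NIF, from -2.22 for GPA33 to 0.69 for KRT20, and to the right of 0 for all 10 genes in both sort comparisons.

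ALDHbr against ALDHneg cells of SW620 under DMSO asked which genes differed with the sort alone. Both sort comparisons share their libraries with the drug comparisons above. Of the 10 genes, 4 were called higher and 0 lower, beside 11.3% of all genes tested (5.45% higher and 5.86% lower). The groups did not overlap for 8 of the 10, all with ALDHbr above, beside 28.7% of all genes. The background rested on 1 library: without ALDHbr DMSO replicate 2 it was 38.8%, with 5 of the 10 genes called higher, and it was 5.03% to 5.45% without any other of the 6 libraries, with 3 of the 10 called. The log2 fold change was positive for all 10 genes, beside 7271 of all 13953 genes tested. The median of the 10 was 0.36, against 0.01 for all genes. At an unadjusted p below 0.05, 9 of the 10 passed, beside 4423 of all 13953 genes.

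CDX2, at the levels given above, had a mean of 1.81 ± 0.278 CPM in ALDHbr and 0.668 ± 0.0568 CPM in ALDHneg cells (SD, n = 3). All ALDHbr libraries were higher, and the log2 fold change of 1.44 (SE 0.23, adjusted p = 0.00134) was the largest of the 10. HNF4A had means of 127 ± 3.12 and 90.8 ± 4.25 CPM, without overlap, and a log2 fold change of 0.50 (SE 0.05, adjusted p = 5.09e-05). LGALS4 had means of 414 ± 26.7 and 312 ± 4.504 CPM and a log2 fold change of 0.42 (SE 0.05, adjusted p = 0.000249). Its ALDHbr libraries were all above its ALDHneg libraries.

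EPCAM had means of 848 ± 86.5 CPM in ALDHbr and 698 ± 6.74 CPM in ALDHneg cells. Its groups did not overlap, and the log2 fold change was 0.29 (SE 0.08, adjusted p = 0.027). This call was lost when any of 5 of the 6 libraries was left out (adjusted p = 0.0748 to 0.126), the exception being ALDHbr DMSO replicate 2 (adjusted p = 0.000373). VIL1 (log2 fold change 0.14, adjusted p = 0.091), KRT20 (0.14, adjusted p = 0.0624), CDH17 (0.31, adjusted p = 0.0595) and GPA33 (0.50, adjusted p = 0.133) missed the threshold of the edgeR quasi-likelihood test although their groups did not overlap. KRT20 was called without ALDHbr DMSO replicate 2 (adjusted p = 0.0341) and, like CDH17, by DESeq2 (adjusted p = 0.0254 for KRT20 and 0.0462 for CDH17). CDX1 had 7 to 13 reads in the ALDHneg and 14 to 25 in the ALDHbr libraries, with a log2 fold change of 0.92 (SE 0.39, adjusted p = 0.126). KRT8 had overlapping groups and a log2 fold change of 0.06 (95% interval -0.08 to 0.20).

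Under NIF the same sort comparison called 5 of the 10 genes higher and 0 lower, beside 6.67% of all genes tested (3.41% higher and 3.26% lower; 476 and 455 genes, or 584 and 367 without TMM). The groups did not overlap for 7 of the 10, beside 30.2% of all genes. All 10 log2 fold changes were again positive, beside 7320 of all 13953 genes tested. The median of the 10 was 0.28, against 0.01 for all genes. CDX2 had a log2 fold change of 1.55 (SE 0.31, adjusted p = 0.00803) and HNF4A of 0.68 (SE 0.05, adjusted p = 6.2e-06). LGALS4 (log2 fold change 0.27, adjusted p = 0.0075), KRT20 (0.27, adjusted p = 0.00194) and VIL1 (0.24, adjusted p = 0.0122) were also called by the edgeR quasi-likelihood test. The ALDHbr libraries of these 5 genes were all above the ALDHneg libraries. The VIL1 call was lost without any of 4 libraries, namely ALDHbr NIF replicate 1 or 2 and ALDHneg NIF replicate 1 or 2 (adjusted p = 0.0559 to 0.0637). GPA33, with 21 to 31 reads in ALDHbr and 8 to 19 in ALDHneg libraries, had a log2 fold change of 1.12 (SE 0.33, adjusted p = 0.0585), which DESeq2 called (adjusted p = 0.022). CDX1 (1.17, SE 0.51), CDH17 (0.29, SE 0.10), EPCAM (0.15, SE 0.08) and KRT8 (0.06, SE 0.07) were not called, but CDH17 was called without ALDHbr NIF replicate 3 (0.39, adjusted p = 0.032).

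The drug and the sort therefore lined up differently from gene to gene. CDX2 and HNF4A were highest in ALDHbr cells under DMSO and lowest in ALDHneg cells under NIF, with the 2 remaining groups between them. The mean of HNF4A in those was 85.4 ± 2.58 CPM (ALDHbr NIF) and 90.8 ± 4.25 CPM (ALDHneg DMSO), and their libraries overlapped. LGALS4 and KRT20 were highest in ALDHbr cells under NIF, at 534 ± 22.9 and 748 ± 8.11 CPM, and lowest in ALDHneg cells under DMSO, at 312 ± 4.504 and 420 ± 13.8 CPM.

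In SUM159 the colon genes were at the edge of detection. Over the 12 libraries, CDX2 had 1 read in all, CDH17 3, GPA33 5, CDX1 6, HNF4A 6, VIL1 40, KRT20 79, LGALS4 124 and EPCAM 131. ALDHbr DMSO replicate 3 alone held 75 of the KRT20, 55 of the LGALS4, 87 of the EPCAM, 17 of the VIL1 and 3 of the GPA33 reads. Without it KRT20 had 4 reads, LGALS4 69, EPCAM 44, VIL1 23, HNF4A 5, GPA33 2 and CDH17 2. CDX2 was at 0 in 11 libraries, CDH17 in 10, CDX1 and GPA33 in 9, HNF4A in 8 and KRT20 in 7. A count of 3 reads would be 0.0801 CPM in a SUM159 library of average size.

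The summed level of the 9 genes other than KRT8 was 0.190 to 6.15 CPM in SUM159, with 0.772 CPM as the highest value without ALDHbr DMSO replicate 3, and 1674 to 2362 CPM in SW620. In ALDHbr DMSO replicate 3, EPCAM stood at 0.264% of its mean in SW620 ALDHbr DMSO cells, VIL1 at 0.265%, LGALS4 at 0.341% and KRT20 at 0.420%. HNF4A, at 0.0202%, did not share that ratio: it had 1 read where the ratio of EPCAM would give 13.1. By the same ratio VIL1 had 17 reads against 16.9, LGALS4 55 against 42.5 and KRT20 75 against 47.0. CDH17 had 1 against 1.53 and GPA33 3 against 0.273, while CDX1 and CDX2 had 0 against 0.0583 and 0.186. No cause of these reads was tested.

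**Figure D3:**
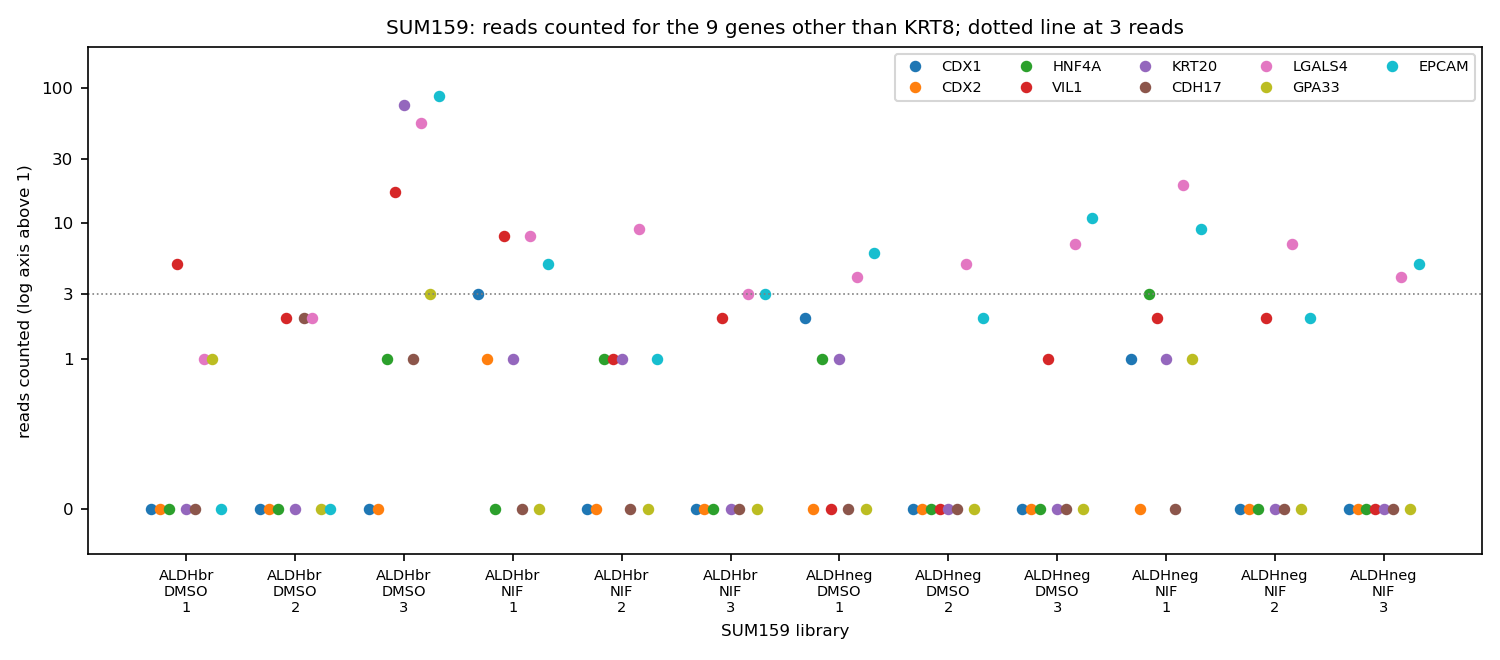
Reads counted for the 9 genes other than KRT8 in each SUM159 library (vertical axis logarithmic above 1, dotted line at 3 reads, colours by gene). ALDHbr DMSO replicate 3 stands apart with 87 EPCAM, 75 KRT20, 55 LGALS4 and 17 VIL1 reads, while no other library exceeds 19 reads for any of these genes.

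Ratios between the lines were taken from counts summed over treatments and fractions, with exact binomial 95% intervals that cover counting error only. HNF4A was 6678 times as high in SW620 (interval 3068 to 18200), and 7320 times as high (3137 to 22550) without ALDHbr DMSO replicate 3. For EPCAM the ratio was 2504 (2110 to 2996), and it became 6811 (5074 to 9374) without that library. KRT20 depended on it most, with a ratio of 3160 (2536 to 3992) and of 57020 (22270 to 209300) without it. The ratio of VIL1 was 1779 (1307 to 2491), of CDH17 2021 (691 to 9803) and of LGALS4 1528 (1282 to 1838), and without that library they were 2827, 2769 and 2509. The genes weak in SW620 gave smaller ratios, 391 for CDX2 (69.8 to 15500), 132 for GPA33 (56.4 to 409) and 24.3 for CDX1 (10.9 to 67.5). Without that library GPA33 had a ratio of 302 (83.3 to 2501). KRT8 was 27.9 times as high in SW620 (27.7 to 28.1). Under DMSO the edgeR fit put KRT8 at 36.5 times in ALDHbr and 26.1 times in ALDHneg cells, both outside that interval.

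In the fit of all 24 libraries, 9 of the 10 genes passed the filter on low counts through SW620 alone, so that they had to come out higher there and their calls are no result. With at least 10 counts required in every library, KRT8 was the 1 gene of the 10 still tested. The background was 39.6% of all 16271 genes called higher in SW620, 41.7% called lower and 81.3% in either direction in ALDHbr cells under DMSO, with 80.0% not overlapping. In ALDHneg cells under DMSO it was 38.5%, 42.7% and 81.2%, with 83.0% not overlapping. Without TMM the median of all genes moved from -0.05 to -0.20 in ALDHbr and from -0.07 to -0.24 in ALDHneg cells. KRT8 had log2 fold changes (SW620 over SUM159) of 5.19 (SE 0.11, adjusted p = 1.34e-22) and 4.70 (SE 0.11, adjusted p = 5.1e-22) in the edgeR quasi-likelihood test. Over all libraries CDX1 had 135 reads in SW620 and 6 in SUM159, and CDX2 had 362 and 1.

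Marker lists were summed to set the lines beside their labelled tissues, and not every sum followed the labels. The mesenchymal list of 10 genes, which includes VIM and FN1, summed to 6330 to 8269 CPM in SUM159 and 7.07 to 36.96 CPM in SW620, where 3 to 6 of them were at 0 in each library. The 12 mammary markers were low in both lines. Under DMSO they summed to 80.2 to 84.9 CPM in ALDHbr and 29.0 to 40.1 CPM in ALDHneg cells of SUM159, above the 25.0 to 29.4 CPM and 24.1 to 26.7 CPM of SW620. Under NIF the SW620 sums were 55.4 to 65.2 CPM in ALDHbr and 66.4 to 68.1 CPM in ALDHneg cells, and those of SUM159 were 72.1 to 79.9 CPM and 27.0 to 33.3 CPM. The 17 epithelial adhesion and splicing genes summed to 14.3 to 32.9 CPM in SUM159 and 4524 to 5007 CPM in SW620. The sum of 18 brush border genes went against the labels, at 1010 to 1302 CPM in SUM159 and 794 to 1003 CPM in SW620. Single genes of that list mostly did not. Of 11 tested between the lines, 8 were called higher and 2 lower in SW620 in each fraction under DMSO. Their median log2 fold change was 3.99 in ALDHbr and 2.25 in ALDHneg cells. Only 5 of the 18 passed the filter within SUM159, beside 10 within SW620, so that some of these genes had to come out higher in SW620. Lists of intestinal transcription factors and of colonocyte, goblet and enteroendocrine, and keratin and desmosome genes summed higher in every SW620 library.

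KRT8 was the only one of the 10 genes that could be tested within SUM159, where 14953 genes passed the filter. It stood at 214, 256 and 239 CPM in ALDHbr DMSO, 237, 268 and 257 CPM in ALDHbr NIF, 289, 371 and 289 CPM in ALDHneg DMSO and 300.2, 320 and 334 CPM in ALDHneg NIF libraries. ALDHneg libraries were all above ALDHbr libraries under either treatment, while the NIF and DMSO ranges overlapped. For NIF, the edgeR quasi-likelihood test gave a log2 fold change of 0.11 in ALDHbr (95% interval -0.09 to 0.30, adjusted p = 0.651) and 0.01 in ALDHneg cells (-0.18 to 0.20, adjusted p = 0.98). The background was 3.16% of genes called in ALDHbr (0.936% higher, 2.23% lower) and 3.30% in ALDHneg cells (1.10% higher, 2.20% lower), with groups not overlapping for 23.3% and 19.8%. It was 13.3% and 13.2% with replicate number as a block, under which KRT8 was not called either. Neither edgeR nor DESeq2 called KRT8 for NIF, and its unadjusted p was 0.297 and 0.93. In the sort, KRT8 was lower in ALDHbr cells, by a log2 fold change of -0.42 (SE 0.10, adjusted p = 0.00521) under DMSO and of -0.33 (SE 0.10, adjusted p = 0.0249) under NIF, beside 23.0% of genes called under DMSO (10.7% higher, 12.3% lower) and 21.9% under NIF (9.95% higher, 12.0% lower), or 36.0% and 35.2% with the block. Groups did not overlap for 36.5% and 38.5% of all genes. The second call was lost without ALDHbr NIF replicate 1 or 3 or ALDHneg NIF replicate 2 or 3 (adjusted p = 0.0597 to 0.0962).

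The other genes of the intestinal epithelium were described from lists. In each case the counts refer to genes that passed the filter in SW620, and the share of all genes called was as given above for each comparison.

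Of 16 further intestinal transcription factors tested, NIF raised 3 and lowered 9 in ALDHbr cells (median log2 fold change -0.28), and raised 2 and lowered 10 in ALDHneg cells (median -0.39). KLF4, a factor of post-mitotic epithelium, rose from 18.9 ± 2.16 to 50.2 ± 1.35 CPM in ALDHbr cells (log2 fold change 1.39), and PRDM1, a repressor of the fetal gut, rose by 1.87. MYB, a factor of crypt progenitors, fell from 43.5 ± 0.895 to 15.9 ± 0.954 CPM (log2 fold change -1.47), and ELF3, an epithelial ETS factor, had a log2 fold change of -0.90. In ALDHneg cells KLF4 (1.58) and PRDM1 (1.75) were likewise called higher, and MYB (-1.59) lower. With the sort under DMSO, 5 of the 16 were higher and 0 lower in ALDHbr cells, among them MYB (0.31, not called without ALDHneg replicate 3, adjusted p = 0.0572), with a median of 0.06.

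Of 10 brush border genes tested out of 18 listed, NIF raised 5 and lowered 0 in ALDHbr cells (median 0.28) and raised 5 and lowered 2 in ALDHneg cells (median 0.16). CDHR5, a protocadherin of the links between microvilli, rose from 21.1 ± 0.917 to 50.3 ± 0.473 CPM in ALDHbr cells (log2 fold change 1.23), and the peptidase DPP4 from 29.2 ± 2.28 to 61.1 ± 4.19 CPM (1.05). In ALDHneg cells DPP4 (1.27) and CDHR5 (1.03) rose, while USH1C (-0.20) and PLS1 (-0.24) fell. The PLS1 call was lost when any library but DMSO replicate 1 was left out (adjusted p = 0.0511 to 0.147). The sort under DMSO called 2 higher, USH1C (0.42) and DPP4 (0.29), and 0 lower, with a median of 0.12. The DPP4 call was lost without ALDHbr replicate 3 or any ALDHneg library (adjusted p = 0.0586 to 0.112). VIL1, the bundling protein of the same structure, was not called under NIF in either fraction.

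Of 13 colonocyte differentiation genes tested out of 22 listed, 4 were raised and 6 lowered by NIF in ALDHbr cells (median -0.18), and 4 and 5 in ALDHneg cells (median -0.03). CEACAM5, the carcinoembryonic antigen, rose from 21.8 ± 1.41 to 62.6 ± 4.00 CPM in ALDHbr (log2 fold change 1.504) and from 25.8 ± 1.23 to 94.2 ± 3.09 CPM in ALDHneg cells (1.86). The membrane mucin MUC17 also rose, by 1.58 and 1.75, and the first value was 2.36 without ALDHbr DMSO replicate 2. TSPAN8, a tetraspanin, fell from 338 ± 37.4 to 128 ± 9.79 CPM in ALDHbr cells (log2 fold change -1.42) and had a log2 fold change of -1.53 in ALDHneg cells, with PHGR1 at -0.68 and -0.61. In the sort under DMSO 4 were higher and 2 lower (median 0.20), with TSPAN8 (0.70) and MUC13 (0.58) higher and CEACAM6 (-0.59) and CEACAM5 (-0.23) lower in ALDHbr cells. The CEACAM5 call was lost when any library but ALDHbr replicate 2 was left out (adjusted p = 0.0845 to 0.175).

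Of 9 goblet and enteroendocrine genes tested out of 16, NIF raised 1 and lowered 5 in ALDHbr cells (median -0.33) and raised 1 and lowered 3 in ALDHneg cells (median -0.49). AGR2, a disulfide isomerase needed for mucin folding, was the gene raised in both (0.41 and 0.33). FCGBP (-0.94) and TFF3 (-0.64, not called without NIF replicate 1, adjusted p = 0.0586) fell in ALDHbr cells, and SPDEF (-0.43) fell in ALDHneg cells. The sort under DMSO gave 3 higher and 1 lower with a median of 1.01. The trefoil peptide gene TFF3 was at 2.94 ± 0.241 CPM in ALDHbr and 0.827 ± 0.0896 CPM in ALDHneg cells (log2 fold change 1.84), FCGBP differed by 1.55, and SPDEF by -0.31.

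Of 13 keratin and desmosome genes tested, NIF raised 8 and lowered 2 in each fraction (medians 0.26 and 0.31). PPL, which links desmosomes to keratin filaments, rose from 158 ± 13.9 to 340 ± 24.3 CPM in ALDHbr cells (log2 fold change 1.09), and KRT80 by 0.93. KRT18, the partner with which KRT8 forms filaments, fell with it, from 4873 ± 697 to 3892 ± 348 CPM (log2 fold change -0.35), and PKP2 was at -0.25, a call lost without DMSO replicate 2 or NIF replicate 2 or 3 (adjusted p = 0.0654 to 0.114). In ALDHneg cells PPL (1.16) and KRT80 (0.83) were higher and PKP2 (-0.36) and KRT18 (-0.29) lower. The KRT18 call was lost without DMSO replicate 1 or NIF replicate 1 or 3 (adjusted p = 0.0655 to 0.097). In the sort under DMSO 1 was higher and 3 lower (median -0.15), including KRT80 (-0.67) and PPL (-0.36).

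The 17 epithelial adhesion and splicing genes, to which EPCAM is functionally close, were balanced. NIF raised 4 and lowered 3 in ALDHbr cells (median -0.06) and raised 4 and lowered 4 in ALDHneg cells (median -0.04). The protease inhibitor SPINT1 (0.37 and 0.43) and the protease PRSS8 (0.35 and 0.54) rose in both fractions, and ST14 (-0.32 and -0.34) and the tight junction gene TJP3 (-0.68 and -0.67) fell in both. The sort under DMSO called 1 higher, OVOL1 (0.21), and 2 lower, GRHL2 (-0.28) and ESRP1 (-0.25), with a median of 0.00. The OVOL1 call was lost when any library but ALDHbr replicate 2 was left out (adjusted p = 0.0701 to 0.153). That of ESRP1 was lost without ALDHbr replicate 1 or 3 or ALDHneg replicate 2 or 3 (adjusted p = 0.0674 to 0.0798), and that of GRHL2 without ALDHneg replicate 1 (adjusted p = 0.0511).

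Markers of other cell types moved beside these genes. Of the 4 mesenchymal markers tested in SW620, AXL rose under NIF in both fractions, from 6.67 ± 0.953 to 22.8 ± 1.16 CPM in ALDHbr cells (log2 fold change 1.75) and by 1.22 in ALDHneg cells, and was lower in ALDHbr cells under DMSO (-1.10). NIF raised 1 and lowered 1 of these 4 in ALDHbr and raised 2 and lowered 1 in ALDHneg cells, and the sort under DMSO called 0 higher and 2 lower. Of the 6 mammary markers tested, 2 were called higher and 1 lower in ALDHbr and 2 and 2 in ALDHneg cells. KRT17, a keratin of basal and stressed epithelia, rose from 5.99 ± 1.13 to 35.6 ± 5.01 CPM in ALDHbr (log2 fold change 2.55) and from 3.02 ± 0.366 to 43.96 ± 0.539 CPM in ALDHneg cells (3.85). MYLK (1.19 in ALDHbr) and ELF5 (0.94 in ALDHneg) were also higher and GATA3 (-0.37 and -0.65) lower under NIF. The GATA3 call in ALDHbr cells was lost without DMSO replicate 2 or NIF replicate 1 or 3 (adjusted p = 0.062 to 0.0707). In the sort under DMSO, KRT17 (1.00) and ELF5 (0.60) were higher and MYLK (-0.83) and GATA3 (-0.41) lower. The ELF5 call was lost without ALDHbr replicate 3 or any ALDHneg library (adjusted p = 0.0549 to 0.132). Without ALDHbr replicate 1 or 3, MYLK (adjusted p = 0.0807 and 0.0538) and GATA3 (adjusted p = 0.109 and 0.111) were not called, nor was MYLK without ALDHneg replicate 2 or 3 (adjusted p = 0.0611 and 0.065) or GATA3 without ALDHneg replicate 1 or 3 (adjusted p = 0.0965 and 0.11). Their part in the results above was not tested.

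**Figure D4:**
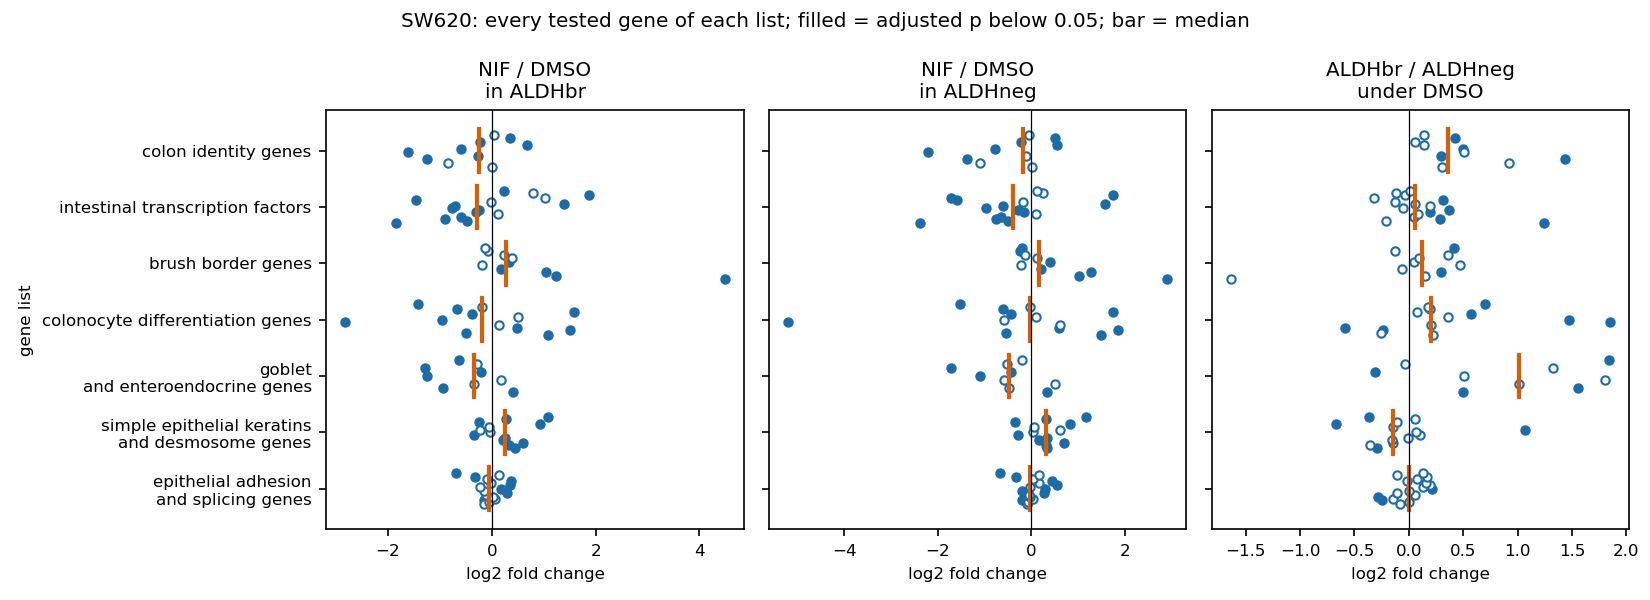
Log2 fold change of every tested gene of the 10 colon identity genes and of 6 other epithelial lists in 3 SW620 comparisons (filled points, adjusted p below 0.05 in edgeR's quasi-likelihood test; orange bar, list median). Under NIF the median of the keratin and desmosome genes lies above 0 (0.26 and 0.31) and that of the intestinal transcription factors below 0 (-0.28 and -0.39), and each list but the brush border genes in ALDHbr cells holds calls on both sides.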

How the data were processed

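RNA from 24 libraries (SUM159 and SW620, ALDHneg and ALDHbr, NIF or DMSO for 30 h, 3 libraries per group) was made with a stranded total RNA kit, and only RNA of good integrity was sequenced. The deposited table holds raw counts of reads for each gene, with no normalization. The submitters' processing notes name FastQC, STAR and GRCh38, and the counting tool and annotation are not given in the sources used here. Totals ran from 30253187 to 43127948 counts (median 36520935), which limits genes with few reads. Of 28307 genes, 4579 had no count.

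Groups were taken from the labels. In R 4.3.3, edgeR 4.0.16 was run per line (12 libraries, 4 groups) after filterByExpr and TMM, with quasi-likelihood F tests and Benjamini-Hochberg adjustment over all genes kept, at 0.05. Comparisons between lines used all 24 libraries. Alternatives were DESeq2 1.42.0, other scalings, filters and sample sets, the replicate number as a block, calls kept only past an absolute log2 fold change of 1, and leaving out each library. The script was tested on simulated data. Transcript lengths came from MANE Select (GENCODE v44), and promoters from RefSeq on GRCh38.p14.

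All 10 genes are named. From each other list, the 2 highest and 2 lowest log2 fold changes are named among called genes with a mean of at least 1 CPM over the SW620 libraries, in 3 comparisons (NIF in each fraction, and the sort under DMSO). Some genes that this rule names are not reported here. The 10 genes and the lists were chosen with earlier results of these data known, and the tests of KRT8 between the lines and the results without SUM159 ALDHbr DMSO replicate 3 were added after seeing the data. Replicate numbers paired the SUM159 libraries (all 18 correlations of same-numbered libraries above 0.1, 0.125 to 0.453). In SW620 they did not (1 of 18). Replicates of a group differed by more than counting noise (chi-square per gene 1.97 to 46.1 over 24 pairs), and each was counted as 1 sample. The p-values measure the spread between 3 independent experiments of 1 line. The 95% intervals use the normal quantile and are narrower than the test. That of CDX1 in SW620 ALDHbr cells under NIF (-1.62 to -0.07) left out 0. Its unadjusted p was 0.0523 in edgeR's quasi-likelihood test.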

Additional observations from a re-analysis of the deposited data

Results flagged for a closer look

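One result stood out because the same comparison differed between the lines. Under DMSO, the SUM159 libraries had less KRT8 in the ALDHbr than in the ALDHneg fraction (log2 fold change -0.42, all 3 ALDHbr libraries below all 3 ALDHneg libraries) but not in SW620 (0.06, groups overlapping). The difference itself (SW620 minus SUM159), tested by edgeR's quasi-likelihood test in a fit of all 24 libraries, was 0.49 on the log2 scale (SE 0.13, adjusted p = 0.0119 over 16271 genes, of which 19.1% were called). The fit used a shared estimate of the spread for both lines. It did not block on replicate number, which paired the SUM159 but not the SW620 libraries. The difference was 1 of 4 such differences computed for KRT8. The sort under NIF gave 0.38 (adjusted p = 0.0588), NIF in ALDHbr cells -0.34 (adjusted p = 0.0688) and NIF in ALDHneg cells -0.23 (adjusted p = 0.236), and none of these passed. Adjusted over the 4 alone, the values were 0.00496, 0.0171, 0.0235 and 0.0924. Groups of 3 libraries were too small to test single libraries for being outliers.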

How the results depend on the processing

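For SW620 ALDHbr cells under NIF, the number of the 10 genes called higher (2) became 1 with all 24 libraries in one fit and 0 with a minimum absolute log2 fold change of 1. The number called lower (5) became 3 when at least 10 counts were required in every library, with all 24 libraries or with only the groups compared, 2 with the minimum fold change, and 3 to 5 when each library was left out (3 without ALDHbr NIF replicate 1). For ALDHneg cells under NIF, 2 higher became 0 with the minimum fold change, and 4 lower became 2 with it and 2 with at least 10 counts. In the SW620 sort, 4 higher under DMSO and 5 under NIF each became 2 with all 24 libraries and 1 with the minimum fold change. In SUM159, KRT20 was called lower under NIF in ALDHbr cells (1 gene), and KRT20 and VIL1 higher in the sort under DMSO (2 genes), without the filter, and the same numbers were called with all 24 libraries. Without ALDHbr DMSO replicate 3, none of these unfiltered calls was made. KRT20 turned from -4.97 to 2.64 under NIF and from 5.76 to -1.86 in the sort, and EPCAM from 2.20 (not called) to a called -5.63 in the sort. The SUM159 sort calls of KRT8 (1 each) became 0 with the minimum fold change, and under NIF ran from 0 to 1 when each library was left out. Between the lines, 10 tested higher became 1 in both fractions with at least 10 counts, since 9 genes then went untested. Among genes that passed the filter, directions turned for CDH17 and KRT8, in comparisons where neither was called. CDH17 in ALDHbr cells under NIF was 0.0049 without the filter, 0.00035 with only the groups compared and -0.0909 to 0.0920 when each library was left out. CDH17 in ALDHneg cells was -0.0503 without TMM and -0.0554 to 0.0741 when each library was left out, and KRT8 in SUM159 ALDHneg cells under NIF was -0.0564 to 0.140. Blocking on replicate number, the numbers called higher and lower stayed 2 and 5 (ALDHbr) and 2 and 4 (ALDHneg) under NIF in SW620 and 4 (DMSO) and 5 (NIF) in its sort, and no call of KRT8 in SUM159 changed. The SW620 numbers do not pair the libraries (correlations -0.276 to 0.213). The share of all genes called in the SW620 sort under DMSO (11.3%) became 38.8% without ALDHbr DMSO replicate 2, 8.19% with the block and 5.38% with only the groups compared. DESeq2 called 6.20% and 6.21% of genes for NIF in SUM159 (3.16% and 3.30%). Where no construction explains a change, the cause was not tested. Over all named genes and alternatives, 1616 results were the same, 176 lost a call, 9 gained one and 10 turned. Depth limits CDX1, CDX2 and GPA33, which had 3 to 112 reads per SW620 library.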
